A study of Mus musculus with 6 samples.

Results

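The genes described here act in homologous recombination and in the Fanconi pathway. They were taken from a list of 39 gene symbols, which was chosen with earlier results of these data known. The transcript clusters of the array annotated with exactly 1 of these symbols were read. Of several clusters of a gene the brightest on average was used, a rule that takes no change between groups. Of the 39 genes, 37 were measured among the 19938 genes with a cluster of their own, and Rbbp8 and Xrcc2 were not analysed here. The samples were enterospheres, spheres that cells of the dissociated gut muscle wall form in suspension, here from neonatal C57BL/6 mice, with 1 GeneChip array for each of 6 samples. Differentiation enterospheres proliferated for 9 days with EGF and FGF and then spent 2 days without them in a medium with ascorbic acid-2-phosphate (n = 3). Proliferation enterospheres stayed with EGF and FGF for all 11 days (n = 3). Withdrawal of the growth factors and addition of the ascorbate therefore cannot be told apart. All samples were untreated otherwise. Each pooled the guts of several pups, 3 by the labels, while the methods give another number, and the spheres hold neural progenitors together with other cells of the gut wall. The labels give EGF at 10 ng/mL and FGF at 20 ng/mL, while the methods give another EGF dose.

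Homologous recombination repairs a broken chromosome by copying the sister chromatid, so it works mainly in S and G2 phase. Broken ends are first cut back to single strands, BRCA1 and BRCA2 complexes prepare these for strand exchange, and nucleases and helicases then separate the joined molecules. The Fanconi pathway removes links between the strands of DNA that block replication forks: a core complex attaches ubiquitin to the pair FANCD2 and FANCI, which brings in nucleases and hands the break to recombination. The kinases ATM and ATR signal breaks and stalled forks through CHEK2 and CHEK1. In dividing neural progenitors these genes protect the genome during rapid replication.

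Values are on the log2 scale of RMA, a summary of the probes of a cluster. Differences were tested for all clusters together with limma, as differentiation minus proliferation, and a gene fell or rose where its p after Benjamini-Hochberg adjustment was under 0.05. In differentiating enterospheres 13 of the 37 members fell, 0 rose and 24 did not pass. Over all genes 2.97% fell and 2.94% rose. At an unadjusted p under 0.05, 22 members were lower and 0 higher, beside 9.64% of all genes lower and 9.49% higher. The log2 fold changes of the members ran from -1.85 to 0.20 with a median of -0.61, beside a median of 0.02 over all genes. In 23 members every differentiation array lay below every proliferation array, as in 12.9% of all genes, and in 2 members every one lay above, as in 14.6% of all genes. The 13 were Exo1, Fanci, Bard1, Chek1, Brip1, Rad54b, Fancd2, Brca1, Fanca, Eme1, Ube2t, Rad51c and Brca2. Sensors of breaks, the kinases Atm and Atr and 7 of the 8 Fanconi core genes did not pass the test. After removal of differentiation replicate 1 only 2 members passed (Bard1 and Exo1). Removing differentiation replicate 2 left 7, differentiation replicate 3 left 8 and proliferation replicate 3 left 7, each time all among the 13, while removing proliferation replicate 1 or 2 left 15, in both cases 12 of the 13 (Brca2 did not pass) and 3 others. Over all 35556 clusters the number past the test changed too, from 1459 with all arrays. It was 294, 683 and 850 without differentiation replicate 1, 2 and 3. For proliferation replicates 1, 2 and 3 left out, it was 1297, 1213 and 480.

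**Figure D1:**
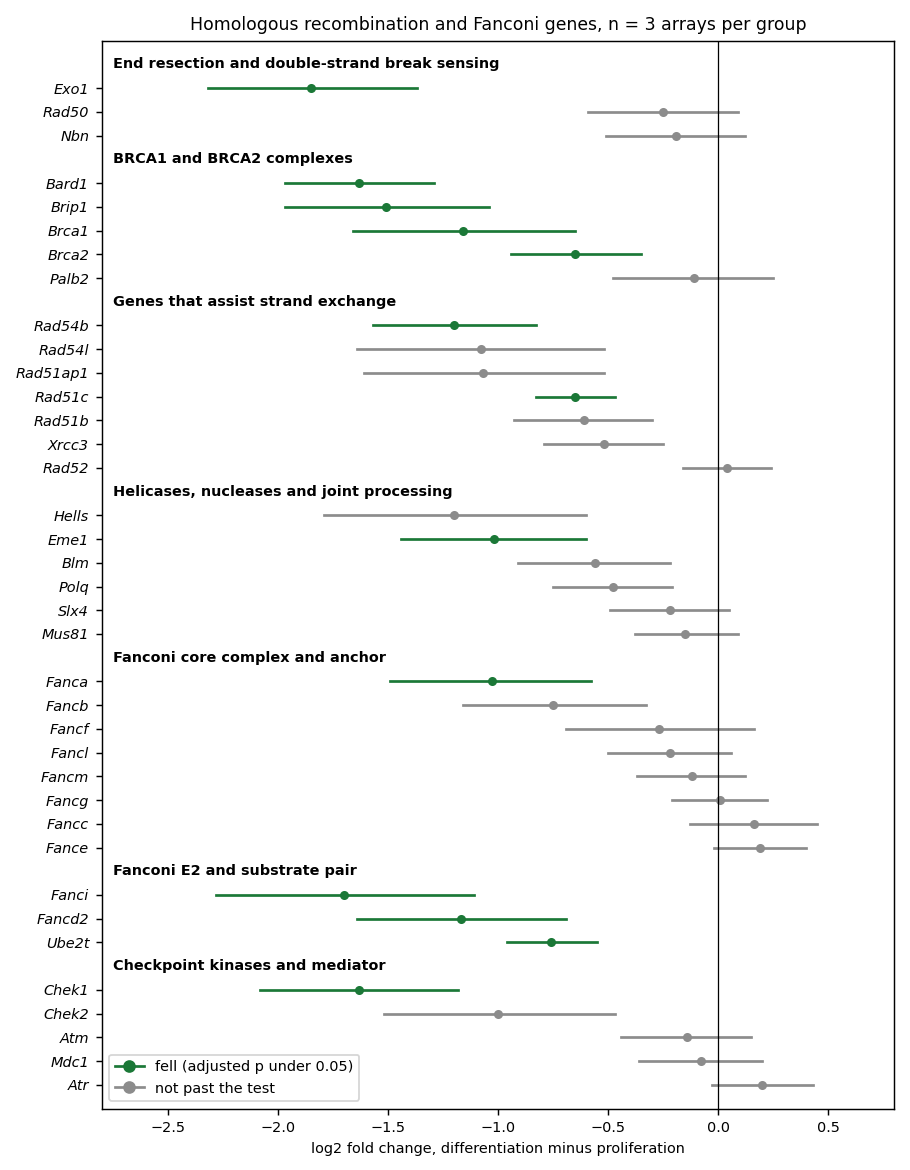
Log2 fold change of the 37 measured members, differentiation minus proliferation, on the horizontal axis, by role on the vertical axis, with limma's 95% confidence interval as a line (3 arrays per group). The 13 green genes fell and lie between -1.85 and -0.65, and the 24 grey genes did not pass the test.

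Among the genes that sense broken ends and cut them back, only Exo1 passed the test. Exo1 (transcript cluster 10352048) encodes an exonuclease that lengthens the single strand at a break. It had log2 values of 5.43, 5.50 and 5.53 on the differentiation arrays, against 6.94, 7.78 and 7.27 on the proliferation arrays. The groups stood apart, with an SD of 0.05 in differentiation and 0.42 in proliferation. The decrease was 3.59-fold, the largest of all measured members (log2 fold change -1.85 ± 0.20, standard error, limma adjusted p = 0.00632). The call held whichever array was left out. Rad50 and Nbn belong to the complex that first binds a broken end, and their groups overlapped. Rad50 averaged 8.09 ± 0.23 in differentiation and 8.34 ± 0.15 in proliferation (SD, n = 3 each), and Nbn averaged 7.73 ± 0.23 in differentiation and 7.93 ± 0.13 in proliferation. Their log2 fold changes were -0.25 and -0.19 (adjusted p = 0.473 and 0.574 from limma), with 95% intervals from -0.59 to 0.09 and from -0.51 to 0.12. A dimmer cluster of Nbn had a log2 fold change of 0.06.

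Of the 5 genes of the BRCA1 and BRCA2 complexes 4 fell. Bard1 (10355329) encodes the partner with which BRCA1 forms a ubiquitin ligase. Its values were 5.69, 5.77 and 5.71 in differentiation, against 7.11, 7.66 and 7.28 in proliferation. This was a 3.09-fold decrease (log2 fold change -1.63 ± 0.14, standard error, limma adjusted p = 0.00384), with the lowest adjusted p among the members, and the call held whichever array was left out. The other 2 clusters of Bard1 fell too, with log2 fold changes of -0.68 and -1.33. Brip1 (10389395), the helicase that binds the BRCT domains of BRCA1, had 5.63, 5.90 and 5.89 in differentiation and 6.98, 7.73 and 7.23 in proliferation, a 2.84-fold decrease (adjusted p = 0.0102). Brca1 (10391461) itself had 5.47, 5.59 and 5.70 in differentiation and 6.35, 7.21 and 6.67 in proliferation, a 2.23-fold decrease (adjusted p = 0.032). For each of these genes the highest differentiation array lay below the lowest proliferation array. Brca2 (10527801), a mediator of strand exchange, had 6.08, 6.33 and 6.19 in differentiation and 6.73, 7.08 and 6.73 in proliferation, a 1.56-fold decrease (adjusted p = 0.0403). Palb2 bridges BRCA1 and BRCA2, and its groups overlapped at 4.63 to 4.88 in differentiation and 4.70 to 5.20 in proliferation (log2 fold change -0.11, 95% interval -0.48 to 0.25, limma adjusted p = 0.799). Its cluster was dim, with every array below the median cluster mean of 6.15, so the overlap does not show that the gene was unchanged. The call of Brip1 ended without differentiation replicate 1 (adjusted p = 0.0633 from limma). That of Brca1 ended without differentiation replicate 1, 2 or 3 or proliferation replicate 3 (0.0749 to 0.144), and that of Brca2 without any 1 of the 6 arrays (0.063 to 0.176).

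Promoters are shown for the members past the test with the largest decreases. The bases just before the start that RefSeq's promoter table lists (the first, where it lists several) were searched on both strands for letters tied to cell cycle genes, namely 5 strings of the E2F type (TTTCGCGC, TTTCCCGC, TTTGGCGC, TTTGCCGC and TTCCCGCC), TTTGAA of the CHR element and CCAAT, bound by NF-Y. RefSeq (GRCm38.p6) gave a promoter for 32 of the 37 measured members. Of the 6 largest decreases past the test with an entry, Fanci and Chek1 held none of these letters in 250 bases, and the other 4 follow with the matches in capitals. Mdc1, which did not pass the test, was added after its values were seen, because it holds an E2F-type string closest to its start. ATTGG is CCAAT read on the other strand, and in Mdc1 the strings TTTCCCGC and TTCCCGCC overlap. Bard1 covers chr1:71102973-71103222 (minus strand), Brip1 chr11:86201194-86201313 (minus), Brca1 chr11:101551956-101552075 (minus), Fanca chr8:123318577-123318696 (minus) and Mdc1 chr17:35841378-35841497 (plus), each printed 5′ to 3′ up to the base before the listed start. That start lies inside the widest annotated span of the gene by 169 bases for Bard1, 22 for Brip1, 75 for Fanca and 3 for Mdc1 and coincides with its end for Brca1.
Bard1: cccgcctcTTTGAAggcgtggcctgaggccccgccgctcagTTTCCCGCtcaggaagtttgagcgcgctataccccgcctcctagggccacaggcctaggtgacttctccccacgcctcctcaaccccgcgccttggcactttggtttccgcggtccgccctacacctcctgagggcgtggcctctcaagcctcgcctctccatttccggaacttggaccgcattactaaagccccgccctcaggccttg
Brip1: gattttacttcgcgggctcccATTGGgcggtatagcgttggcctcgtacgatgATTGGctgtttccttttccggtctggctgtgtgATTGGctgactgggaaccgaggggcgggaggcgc
Brca1: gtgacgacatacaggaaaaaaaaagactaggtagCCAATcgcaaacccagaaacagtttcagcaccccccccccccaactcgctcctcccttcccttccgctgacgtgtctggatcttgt
Fanca: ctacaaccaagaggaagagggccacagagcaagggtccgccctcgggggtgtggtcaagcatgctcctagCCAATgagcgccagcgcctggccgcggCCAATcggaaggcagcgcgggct
Mdc1: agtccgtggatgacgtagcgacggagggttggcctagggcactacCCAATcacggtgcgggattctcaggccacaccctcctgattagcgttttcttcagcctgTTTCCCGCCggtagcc
An E2F-type string stood in the 250 bases of 2 of 10 members that fell (Bard1 and Brca2) and of 6 of 22 that did not pass (Chek2, Fancb, Fancg, Fancm, Hells and Mdc1), beside 3.24% of all 32851 promoters. CCAAT stood in 4 of the 10 and 14 of the 22, beside 33.8% of all promoters, and TTTGAA in 1 and 1, beside 16% of all. Members were counted on the first listed promoter of a gene, while the shares of all promoters count every listed one. A match is a description of letters and was not tested for binding.

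Genes that assist strand exchange were mostly lower, with 2 of 7 past the test and 6 of 7 lower at an unadjusted p under 0.05. Rad51c (10389627) had 6.19, 6.25 and 6.23 in differentiation, against 6.82, 6.90 and 6.90 in proliferation. The arrays of each group lay close together, and the decrease was 1.57-fold (standard error 0.08 on the log2 scale, adjusted p = 0.00741 from limma). Rad54b (10503315), a DNA translocase, had 5.31, 5.44 and 5.66 in differentiation and 6.37, 6.84 and 6.80 in proliferation, a 2.30-fold decrease (adjusted p = 0.0107). Its relative Rad54l had 6.01, 6.05 and 6.15 in differentiation and 6.82, 7.73 and 6.89 in proliferation, with a log2 fold change of -1.08 that did not pass (adjusted p = 0.0604). The single array at 7.73 gave Rad54l an SD of 0.51 in proliferation. Rad51ap1 had a log2 fold change of -1.07 (adjusted p = 0.0581), and Rad51b and Xrcc3 had -0.61 and -0.52 (adjusted p = 0.0601 and 0.0608). None of these 4 overlapped between the groups. Rad52, which anneals single strands, had 7.94, 8.09 and 7.97 in differentiation and 8.01, 7.90 and 7.98 in proliferation (log2 fold change 0.04, 95% interval -0.16 to 0.24). Without differentiation replicate 1 neither Rad51c nor Rad54b passed (adjusted p = 0.0589 and 0.0643), and without proliferation replicate 3 Rad54b did not (0.0589).

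The group of helicases, nucleases and genes that process joined molecules gave 1 decrease among 6. Eme1 (10390050) encodes the partner of the nuclease MUS81. It had 5.99, 5.84 and 6.15 in differentiation, against 6.82, 7.40 and 6.83 in proliferation, a 2.03-fold decrease (adjusted p = 0.0261 from limma). Mus81 itself overlapped, at 8.12, 8.30 and 8.05 in differentiation and 8.22, 8.40 and 8.29 in proliferation (log2 fold change -0.15, adjusted p = 0.567). Hells, a chromatin remodelling helicase, had a log2 fold change of -1.20 and lay just outside the threshold (adjusted p = 0.0506). The helicase gene Blm and Polq, whose polymerase joins ends by short homology, had -0.56 and -0.48 with groups that did not overlap (adjusted p = 0.101 and 0.0744). Slx4, the scaffold of several nucleases, had -0.22 (adjusted p = 0.432). Eme1 did not pass without differentiation replicate 1, 2 or 3 or proliferation replicate 3 (adjusted p from 0.0556 to 0.119), and Hells passed under other settings, among them centring of the arrays (0.048) and removal of proliferation replicate 1 (0.0239).

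In the Fanconi pathway the substrate pair and its E2 enzyme fell in all 3 genes, against 1 of 8 genes in the core complex and its anchor, a difference that was not tested. Fanci (10554281) had 5.09, 5.39 and 5.60 in differentiation, against 6.77, 7.60 and 6.80 in proliferation, a 3.25-fold decrease (adjusted p = 0.015 from limma). Its partner Fancd2 (10540738) had 5.64, 5.53 and 5.55 in differentiation and 6.37, 7.20 and 6.66 in proliferation, a 2.24-fold decrease (adjusted p = 0.0258). Ube2t (10350090), the E2 enzyme that carries ubiquitin to this pair, had 5.39, 5.41 and 5.32 in differentiation and 6.01, 6.21 and 6.16 in proliferation, a 1.69-fold decrease with little spread (standard error 0.09 on the log2 scale, adjusted p = 0.00733). In all 3 genes every differentiation array lay below every proliferation array, as in 12.9% of all genes. Of the 8 genes of the core complex and its anchor, Fanca (10582501), a core subunit, fell 2.05-fold, with 6.46, 6.35 and 6.47 in differentiation and 7.19, 7.92 and 7.27 in proliferation (adjusted p = 0.0346). Fancb, of the catalytic module, had a log2 fold change of -0.75 with groups apart (adjusted p = 0.0727). Fancl, the ubiquitin ligase itself, had -0.22, Fancm, the anchor to DNA, -0.12, and Fancf, Fancg and Fancc, which are core subunits, -0.27, 0.01 and 0.16, all with overlapping groups (adjusted p from 0.443 to 0.988). Fance, which holds FANCD2 in the core complex, was higher on each differentiation array, at 8.91, 8.84 and 9.03, against 8.81, 8.69 and 8.71 in proliferation, a difference of 0.19 that did not pass (adjusted p = 0.365). The calls were lost without differentiation replicate 1 for Ube2t (adjusted p = 0.0526), without differentiation replicate 1 or 2 for Fanci (0.057 to 0.0762), and without differentiation replicate 1, 2 or 3 or proliferation replicate 3 for Fancd2 (0.0774 to 0.107) and Fanca (0.0848 to 0.137).

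Of 5 genes of checkpoint signalling Chek1 alone passed the test. Chek1 (10592201), the effector kinase of stalled replication forks, had 6.18, 6.51 and 6.33 in differentiation, against 7.68, 8.38 and 7.84 in proliferation, a 3.10-fold decrease (log2 fold change -1.63, standard error 0.19, adjusted p = 0.00778 from limma). Atr, the kinase that activates CHEK1, was higher on every differentiation array, at 7.03, 7.21 and 7.02, against 6.93, 6.97 and 6.76 in proliferation, and the difference of 0.20 did not pass (95% interval -0.03 to 0.43, adjusted p = 0.401). Chek2, the effector of ATM, had 5.15, 5.02 and 5.08 in differentiation and 5.77, 6.62 and 5.86 in proliferation, with a log2 fold change of -1.0 that did not pass (adjusted p = 0.0616). Atm and Mdc1, the mediator that binds marked chromatin at breaks, had overlapping groups and log2 fold changes of -0.14 and -0.08 (adjusted p = 0.663 and 0.825). Chek1 did not pass without differentiation replicate 1 (adjusted p = 0.052).

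**Figure D2:**
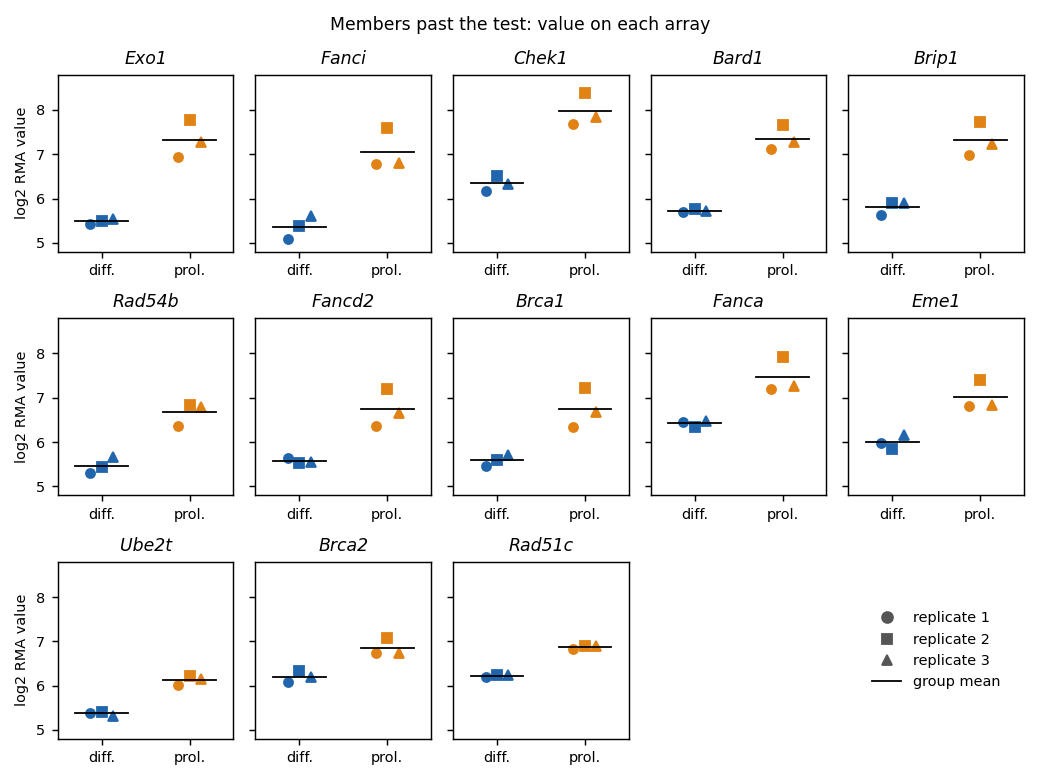
Log2 RMA value on each array for the 13 members past the test, differentiation left and proliferation right in each panel, with replicates as symbols and the group mean as a line. The groups do not overlap in any panel, and proliferation replicate 2 is the highest proliferation array in 12 of the 13.

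The spread between arrays lay mostly in proliferation. Among the 13 members that fell the SD had a median of 0.12 in differentiation and 0.37 in proliferation. Proliferation replicate 2 was the highest array of its group for 12 of these 13 members and for 31 of the 37 measured, but for 5916 of all 19938 genes. The mean over the 13 members was 5.74, 5.83 and 5.87 in differentiation, against 6.78, 7.38 and 6.96 in proliferation. Markers of proliferation had the same highest array: proliferation replicate 2 led its group in 16 of 16, and their mean was 7.92, 8.10 and 8.11 in differentiation, against 9.29, 9.97 and 9.54 in proliferation. Of these 16 markers 13 fell, with a median log2 fold change of -1.54, and 8 of the 13 still passed without differentiation replicate 1. The part of cell division in the changes of the repair genes was not tested, and in bulk samples fewer dividing cells and less RNA per cell cannot be told apart. Without proliferation replicate 2 the members past the test numbered 15, with 12 shared, and Brca2 was lost.

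Some proteins of these pathways work as partners, and 12 such pairs, chosen after the changes were known, were described by the difference of their log2 values within each array. Most set a gene that fell beside one that did not pass, so the differences restate the fold changes above and were not tested. In 9 of 12 pairs the 3 differentiation arrays lay apart from the 3 proliferation arrays. Of all single genes 12.9% lay apart below and 14.6% above, and the share over pairs of genes was not computed. Chek1 minus Atr was -0.85, -0.70 and -0.69 in differentiation, against 0.75, 1.41 and 1.08 in proliferation, and shifted most, by -1.83. Brca1 minus Palb2 was 0.84, 0.79 and 0.82 in differentiation and 1.60, 2.01 and 1.97 in proliferation. The Palb2 cluster was dim, so the pairs with it rest on a weak reference. Fancd2 minus Fancl, the substrate and its ligase, was -0.54, -0.71 and -0.48 in differentiation and 0.20, 0.67 and 0.24 in proliferation, and Eme1 minus Mus81 was -2.13, -2.46 and -1.90 in differentiation and -1.40, -1.0 and -1.45 in proliferation. In these pairs the member named first was lower relative to its partner on every differentiation array than on any proliferation array. Chek2 minus Atm, Brca2 minus Palb2, Bard1 minus Brca1, Brip1 minus Brca1 and Fanci minus Fancd2 also stood apart, with shifts of -0.85, -0.53, -0.47, -0.35 and -0.53. Rad54b and Rad54l, Rad51c and Xrcc3, and Rad51b and Rad51c overlapped, with shifts of -0.12, -0.13 and 0.04.

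**Figure D3:**
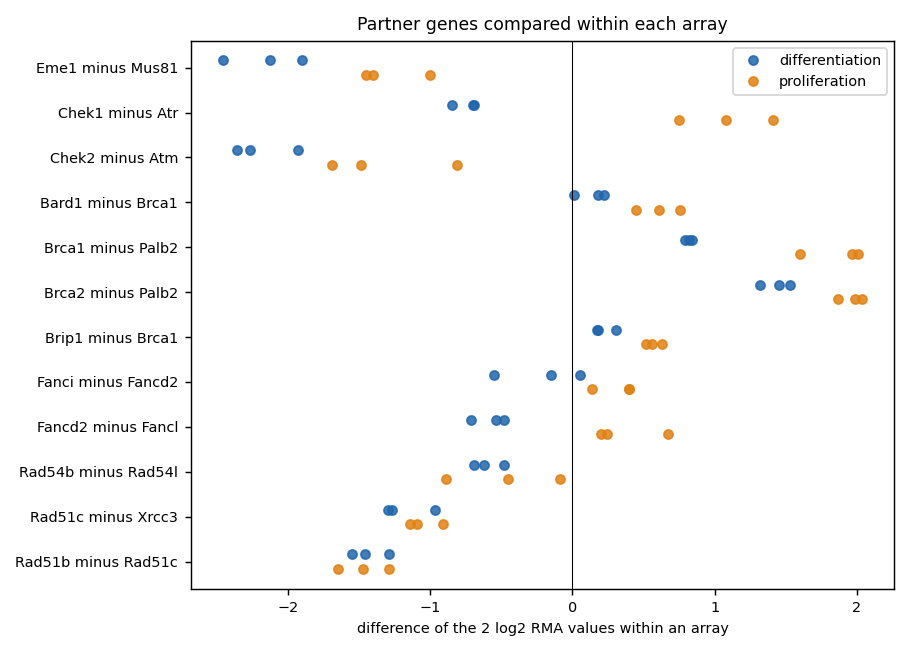
Difference of the log2 RMA values of 2 partner genes within each array on the horizontal axis, for 12 pairs on the vertical axis, with the 3 differentiation arrays in blue above the 3 proliferation arrays in orange. In 9 of the 12 pairs the colours do not overlap, with the widest shift, of -1.83, for Chek1 minus Atr. The pairs were chosen after the changes were known, and the differences were not tested.

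Other genes of repair were read from the same test as lists. Of 34 further genes of recombination and the Fanconi pathway 6 fell and 28 did not pass, with a median log2 fold change of -0.06. The largest decreases were those of Gen1, a nuclease that resolves crossed strands, of Parpbp and of Fignl1, with log2 fold changes of -1.53, -1.21 and -1.19 (limma adjusted p = 0.00899, 0.0115 and 0.0288). Of 11 other checkpoint genes 2 fell, Clspn, the mediator between ATR and CHEK1, and Wee1, a kinase that restrains CDK1, with -1.03 and -0.93 (limma adjusted p = 0.0134 and 0.0112). All 11 had a lower mean in differentiation, with a median log2 fold change of -0.44. At an unadjusted p under 0.05 from limma 7 were lower and 0 higher, beside 9.64% and 9.49% of all genes. In 8 every differentiation array lay below every proliferation array, as in 12.9% of all genes. Non-homologous end joining, which seals breaks without a template, had 0 of 11 genes past limma's test, with 0 lower and 1 higher at an unadjusted p under 0.05 and a median of 0.04. Nucleotide excision repair, which removes bulky damage, likewise had 0 of 15, with 0 lower and 1 higher at an unadjusted p under 0.05 and a median of 0.04. In base excision repair 1 of 16 fell, Neil3, a glycosylase that can also unhook links between strands, with -2.01 (adjusted p = 0.00316), and in mismatch repair 1 of 5 fell, Msh6, with -0.62 (adjusted p = 0.0346). The medians of these lists were -0.07 and -0.27, beside -0.61 for the members, and differences between lists were not tested. Of the 6 further genes that fell, 0, 3 and 2 still passed without differentiation replicate 1, 2 and 3, and 1 without proliferation replicate 3. Gen1 and Clspn did not pass without differentiation replicate 1 (adjusted p = 0.0596 and 0.0672), Parpbp and Wee1 without that array or proliferation replicate 3 (0.0591 to 0.071), Fignl1 without differentiation replicate 1, 2 or 3 or proliferation replicate 3 (0.0773 to 0.134), and Msh6 without any 1 of the 6 arrays (0.0513 to 0.161).

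**Figure D4:**
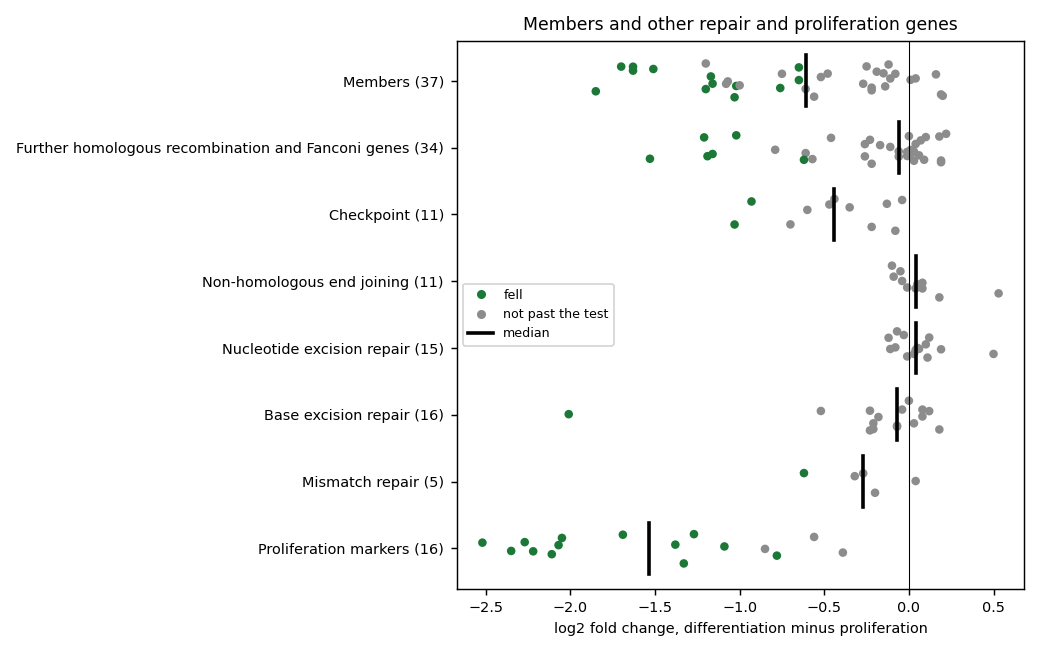
Log2 fold change, differentiation minus proliferation, of each measured gene (point) by list, with the number measured in brackets, green where the gene fell, grey where it did not pass, and the median as a black bar (3 arrays per group, vertical scatter without meaning). The members have a median of -0.61, the genes of end joining and nucleotide excision repair 0.04, and the proliferation markers -1.54.

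The label of enteric nervous system was checked on markers, read as the mean log2 value of a list per array. Glia and progenitor markers, among them Sox10, Erbb3, Foxd3 and Ret, had means of 10.50 to 10.61 in differentiation and 10.28 to 10.68 in proliferation, with 1 of 7 higher (Gfap) and 1 lower (S100b). These means join markers that went opposite ways. The groups overlapped in 0 of the 7, with 3 lower and 4 higher. At an unadjusted p under 0.05 from limma 2 were lower, S100b and Ednrb (log2 fold change -0.70 for Ednrb), and 3 higher. Neuron markers had 10.10 to 10.31 in differentiation and 9.67 to 10.24 in proliferation, with 1 of 9 past the test (Tubb3, higher). At an unadjusted p under 0.05 from limma 0 neuron markers were lower and 2 higher. Tubb3, Gfap and S100b each lost the call under removal of 4 of the 6 arrays in turn (limma adjusted p = 0.0547 to 0.128). Of 7 smooth muscle markers 4 rose (means 7.26 to 7.42 in differentiation and 6.61 to 6.64 in proliferation), and of 2 markers of interstitial cells of Cajal Ano1 fell (means 9.30 to 9.57 in differentiation and 10.20 to 10.75 in proliferation). The other, Kit, lay just outside the threshold, with groups apart and a log2 fold change of -0.85 (limma adjusted p = 0.0501). Without differentiation replicate 1, Acta2, Cnn1 and Ano1 did not pass (limma adjusted p = 0.0502 to 0.0838), which left 2 of the 4 muscle markers, Tagln and Actg2. Without proliferation replicate 3 Acta2 and Cnn1 did not pass. Acta2 also lost its call without differentiation replicate 2 or 3 (limma adjusted p = 0.0614 to 0.0838 over all its losses). Fibroblast markers had 0 of 6 past limma's test, with 1 higher at an unadjusted p under 0.05 (10.83 to 10.93 in differentiation and 10.44 to 11.08 in proliferation). The 15 markers of endothelium, macrophages, epithelium and mesothelium had none past limma's test or at an unadjusted p under 0.05, and their list means lay between 4.90 and 6.43. The part of these cell types in the changes of the repair genes was not tested. Correlations between arrays were 0.988 to 0.995 within groups and 0.983 to 0.989 across them.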

How the data were processed

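RNA of 6 enterosphere samples, 3 of differentiation and 3 of proliferation, was measured on GeneChip Mouse Gene 1.0 ST arrays, 1 array per sample. By the study's methods, scanning used AGCC 3.0 and quality reports Expression Console 1.0. The log2 values deposited by the authors were made by RMA in Partek Software 6.6. Which build and annotation they rest on is not given in the sources used here. RMA as usually run equalises the distributions of the arrays, so a change shared by most genes would not be seen. Symbols came from the platform annotation, in which 21789 of 35556 transcript clusters carried 1 symbol. All 37 measured members matched a gene table of GRCm38.p6 by Entrez identifier, used for names and for the span of the genes whose promoters are shown.

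The titles of the samples gave the groups and replicate numbers. A linear model with a term for group was fitted in limma 3.58.1 (R 4.3.3; lmFit, then eBayes), two-sided, without a filter, with Benjamini-Hochberg adjustment over the 35556 clusters. Intervals of log2 fold changes are limma's at 95%. The steps were tested on simulated data. Within-array differences of partner genes were described without a test. The members, the lists of other genes and the tests were chosen with earlier results of these data known. All 13 members past the test and those higher without overlap were given by array, and in the other lists up to 3 genes past the test. Promoters came from RefSeq, 250 bases before the start. Tables were handled in pandas 2.3.3 (Python 3.11.15) and plots drawn in matplotlib 3.10.9.

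Alternatives were the replicate block, limma-trend with robust estimation, array weights, cyclic loess, centring of arrays on their medians, a filter on dim clusters, clusters with 1 symbol alone, the mean of the clusters of a gene, each array left out, and the methods' t-test. Array values carry no counts, so the number of arrays limits the precision. The methods speak of independent experiments, and what a replicate number marks is not stated in the labels.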

Additional observations from a re-analysis of the deposited data

How the results depend on the processing

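The 13 members past the test numbered 13 after cyclic loess, 14 after centring of the arrays and 15 with limma-trend and robust estimation, and all 13 were shared in each. With 1 array left out there were 2 to 15, and Bard1 and Exo1 passed in every case. There were 22 among clusters with 1 symbol and 22 with the mean of the clusters of a gene. In both the model was fitted anew on fewer rows and fewer tests were adjusted for. With array weights there were 27 (25 lower and 2 higher, Atr and Fance). The weights were 7.45 for differentiation replicate 1, 3.62 for proliferation replicate 3 and 0.397 to 0.491 for the other arrays. That fit thus rested mostly on 1 array of each group, and the cause of the larger count was not tested. With the filter on dim clusters there were 15 among the 27 members left, Rad54b and Ube2t not being among these. The methods' t-test gave 19 at an unadjusted p under 0.05 and at least 1.5-fold, all lower, and 2 after Benjamini-Hochberg adjustment. Members without overlap numbered 24 after cyclic loess and after centring, against 25. Over all clusters 1459 passed (766 lower and 693 higher), 294 to 1297 with 1 array left out, 12721 with array weights and 253 with the methods' t-test after adjustment. No member past the test changed sign under any alternative.

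The replicate numbers were not shown to pair the arrays, since deviations of same-numbered arrays from their group means correlated at -0.00301, 0.0898 and -0.0742. With the replicate block 9 members passed, 8 of them among the 13, and 664 clusters (379 lower and 285 higher). The calls of Brca1, Brca2, Eme1, Fanca and Fancd2 ended and that of Hells was gained. Among other genes the calls of Clspn, Usp1, Msh6, Birc5, Tubb3 and Cnn1 ended (adjusted p = 0.0699, 0.0646, 0.0629, 0.0866, 0.0568 and 0.0629 with the block).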
